A study of Mus musculus with 2 samples.

Results

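Of the 2560 macroH2A1 peaks in the deposited list, 11 were assigned to 6 genes of the Wnt pathway: the ligands Wnt7b and Wnt8a, the receptor Fzd7, the secreted inhibitors Dkk1 and Sfrp1, and the repressor Tcf7l1. The members are the rows whose symbol entry is one of these 6 names, among 1409 genes that have a symbol and a peak. The genes were chosen by the presence of assigned peaks in this same list, so that presence is given as a description and carries no test. Peaks of other genes within 200 kb of a member's start are given as context.

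The peaks come from ChIP-seq, the sequencing of DNA pulled down with an antibody from sheared chromatin, in E14, an established mouse embryonic stem cell line, untreated and grown on gelatine with leukemia inhibitory factor. The study made 1 library with an antibody raised against part of mouse macroH2A1 and 1 library with non-specific IgG from the same line. MacroH2A1 is a histone H2A variant that carries a large globular macro domain. There are no replicates and the list gives no read count or score per peak, so no value below has a replicate error, and the read depth behind each peak is unknown. No values of the IgG library were analysed here, and nothing in the list measures expression, so the cell type could not be checked against markers.

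Wnt ligands are secreted lipid-modified proteins that bind Frizzled receptors together with the co-receptors Lrp5 and Lrp6, which stabilises β-catenin. Dkk1 blocks the pathway by binding these co-receptors, and Sfrp1 by binding Wnt ligands outside the cell. In the nucleus β-catenin acts through the Tcf and Lef factors, and Tcf7l1, known in stem cells as Tcf3, represses target genes in the absence of the signal and limits the self-renewal programme of mouse embryonic stem cells.

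Promoter sequence was looked up for the members except Wnt8a, whose chromosome was left out. It was taken from RefSeq (build GRCm38.p6), with windows for 3 of the 6 genes. It is shown for the 2 genes with peaks closest upstream of their start among these, Dkk1 and Tcf7l1, and for Fzd7, whose peaks were the farthest of all members. Each line gives the 250 bases before the RefSeq start, 5′ to 3′ on the gene's strand, with CpG dinucleotides in capitals. The peaks themselves are in the older build mm9, for which no sequence was used here.
Dkk1: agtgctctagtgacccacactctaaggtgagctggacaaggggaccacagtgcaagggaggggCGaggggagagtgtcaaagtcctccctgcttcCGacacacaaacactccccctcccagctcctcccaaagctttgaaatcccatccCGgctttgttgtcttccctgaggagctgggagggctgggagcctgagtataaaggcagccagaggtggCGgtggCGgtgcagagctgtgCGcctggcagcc
Tcf7l1: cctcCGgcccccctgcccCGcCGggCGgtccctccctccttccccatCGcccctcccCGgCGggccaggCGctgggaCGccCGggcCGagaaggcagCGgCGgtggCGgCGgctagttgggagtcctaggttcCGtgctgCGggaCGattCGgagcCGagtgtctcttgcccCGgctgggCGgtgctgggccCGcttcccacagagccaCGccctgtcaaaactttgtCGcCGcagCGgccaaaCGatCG
Fzd7: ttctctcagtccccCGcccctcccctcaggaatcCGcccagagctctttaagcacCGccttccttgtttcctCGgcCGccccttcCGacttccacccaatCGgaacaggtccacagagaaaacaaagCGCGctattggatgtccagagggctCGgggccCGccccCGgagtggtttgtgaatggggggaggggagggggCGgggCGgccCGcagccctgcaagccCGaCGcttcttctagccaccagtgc

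These windows lie at chr19:30549497-30549746 on the minus strand for Dkk1, at chr6:72789046-72789295 on the minus strand for Tcf7l1 and at chr1:59481897-59482146 on the plus strand for Fzd7, all in GRCm38.p6. The Tcf7l1 window held 29 CpG dinucleotides, a number reached by 6.78% of 32851 promoter windows of the same length. The Fzd7 window held 17, reached by 23.5%, and the Dkk1 window held 6, equal to the median of 6 over all windows. A form of the Tcf and Lef recognition core, CTTTGAT, searched on both strands with overlaps allowed, was in none of the 3 windows and in 3.21% of all windows. Searched the same way, the 4 forms in which CTTTG is followed by AA or AT or TA or TT, a set chosen after the windows were seen, had 2 matches in the Dkk1 window, 1 in the Fzd7 window and 0 in the Tcf7l1 window, and 14.8% of all windows held at least 1. No member's peak covered its gene's deposited start, and the nearest peaks upstream of the deposited starts of these 3 genes ended 0.887 kb (Dkk1), 3.15 kb (Tcf7l1) and 50.4 kb (Fzd7) away. Deposited and RefSeq starts belong to different builds and were not aligned.

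Coordinates from here on are in mm9, as deposited, and the distance of a peak is the gap from the gene start to its nearest base. Of the ligands, Wnt8a, known from the early embryo around gastrulation, had the peak closest to a gene start among the members. It is a short gene of 5.96 kb on the plus strand of chromosome 18 (34701967 to 34707927). Its first peak began 0.383 kb past the start, inside the gene (34702350 to 34704500), and at 2151 bp it was the second widest member peak. Only 2.07% of all peaks lay as close to the start of their gene, and 6.48% of all peaks were wider. The other Wnt8a peak lay 4.47 kb upstream (34696350 to 34697500) and was 1151 bp wide, narrower than 86.1% of all peaks. Thus the start of Wnt8a was flanked by a wide peak inside the gene and a narrow one outside it, 4.85 kb apart.

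Wnt7b, a ligand with roles in the lung, the placenta and the vessels of the brain, had both peaks upstream and farther away. The gene covers 46.1 kb on the minus strand of chromosome 15 (85365877 to 85412012), so its upstream side has the higher coordinates. The nearer peak (85428550 to 85429700) was 16.5 kb from the start and 1151 bp wide. The farther one (85449800 to 85451650) was 37.8 kb away and 1851 bp wide, with 21.7% of all peaks wider. Neither overlapped the gene, and no other peak lay within 200 kb of its start.

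Fzd7, a Frizzled receptor gene of 4.77 kb on the plus strand of chromosome 1 (59539023 to 59543791), had the most distant peaks of the 6 genes. They lay 50.4 kb (59487250 to 59488650) and 75.2 kb (59462350 to 59463850) upstream, with widths of 1401 and 1501 bp. Both widths were under the list's median of 1551 bp. Of all peaks, 60.5% were as close to their gene's start as the nearer of these and 69.6% as close as the farther one, so both distances were above the median of 32.2 kb. No other peak was found within 1 Mb of the Fzd7 start.

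Dkk1 had its peaks immediately upstream. The gene covers 2.69 kb on the minus strand of chromosome 19 (30621326 to 30624013). The nearer peak (30624900 to 30626500, 1601 bp) began 0.887 kb from the start and the next (30626950 to 30628200, 1251 bp) began 2.94 kb from it. Only 449 bp separated these peaks, the closest spacing among the 158 genes with a symbol and exactly 2 distinct peaks. Over the whole list, 0.547% of peaks, the Dkk1 peaks included, had another peak at that distance or nearer. Together the Dkk1 peaks formed a block of 3.30 kb directly upstream of Dkk1, longer than the gene itself.

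Sfrp1, the other secreted inhibitor, was the only member with a single peak. It lay 10.1 kb upstream (24510250 to 24511850, 1601 bp) of a gene of 38.1 kb on the plus strand of chromosome 8 (24521990 to 24560099). Its distance was the median of the 11 member peaks, and its width was close to that of all peaks. Sfrp1 was also the member whose peak stood most alone: the nearest other peak was 242 kb away, against a median of 224 kb for all peaks.

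Tcf7l1, the repressor, had the widest peak of the members. The gene is also their longest, 163 kb on the minus strand of chromosome 6 (72576374 to 72738950). The wide peak (72769450 to 72771900) measured 2451 bp and lay 30.5 kb upstream of the start, and 2.46% of all peaks were wider. The nearer peak (72742100 to 72743650) was 3.15 kb upstream and 1551 bp wide, exactly the list's median. No peak of the list overlapped the gene.

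**Figure D1:**
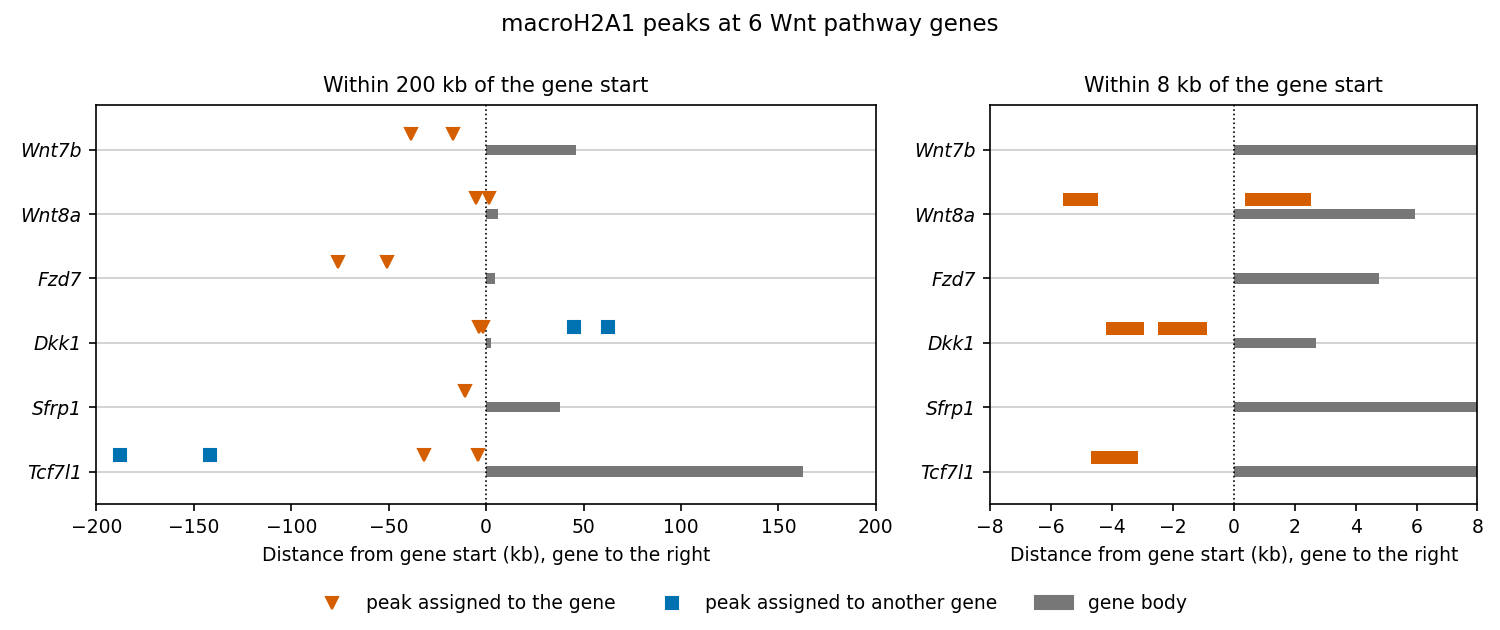
Position of peaks relative to the start of each gene, with the gene drawn to the right of 0 whatever its strand; the x axis is distance from the gene start in kb, at 2 scales. In the wide view symbols mark peak midpoints, and in the close view bars show peak widths to scale: 10 of 11 member peaks sit left of the start, and only Wnt8a has one inside the gene.

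Nearly all member peaks were on the same side of their gene. The authors classed 10 of their 11 peaks as upstream and 1 as inside the gene, and none as downstream; in the whole list 51.4% of peaks were upstream. All peaks had been assigned to the gene with the nearest start, and the part of this rule in the members' count was not tested. In distance the members divided. Wnt8a, Dkk1 and Tcf7l1 had 5 peaks within 5 kb of a start, where 15.0% of all peaks lay. Counted by gene, 3 of the 6 members had a peak so close, against 19.0% of genes with a symbol and a peak. The first Wnt8a peak and the first Dkk1 peak were within 1 kb, as were 4.45% of all peaks. Wnt7b, Sfrp1 and the farther Tcf7l1 peak made up 4 peaks between 10 and 50 kb, and Fzd7 had 2 beyond 50 kb. The members thus had 9 of 11 peaks within 50 kb, where 60.4% of all peaks lay. The median over the 11 peaks was 10.1 kb, beside 32.2 kb for all peaks (interquartile range 10.6 to 97.7 kb) and 27.3 kb for peaks at genes with a symbol.

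Member widths were spread around that of all peaks. Their median of 1551 bp equalled that of all peaks, with 5 members wider, 5 narrower and 1 at that value. They ranged from 1151 bp, at Wnt7b and at Wnt8a, to 2451 bp at Tcf7l1. Nor did width follow distance in one direction within genes. At Wnt8a and Dkk1 the peak nearer to the start was the wider one, and at Wnt7b, Fzd7 and Tcf7l1 it was the narrower one. Among the 153 other genes with 2 peaks the nearer peak was wider in 87, narrower in 56 and equal in 10.

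**Figure D2:**
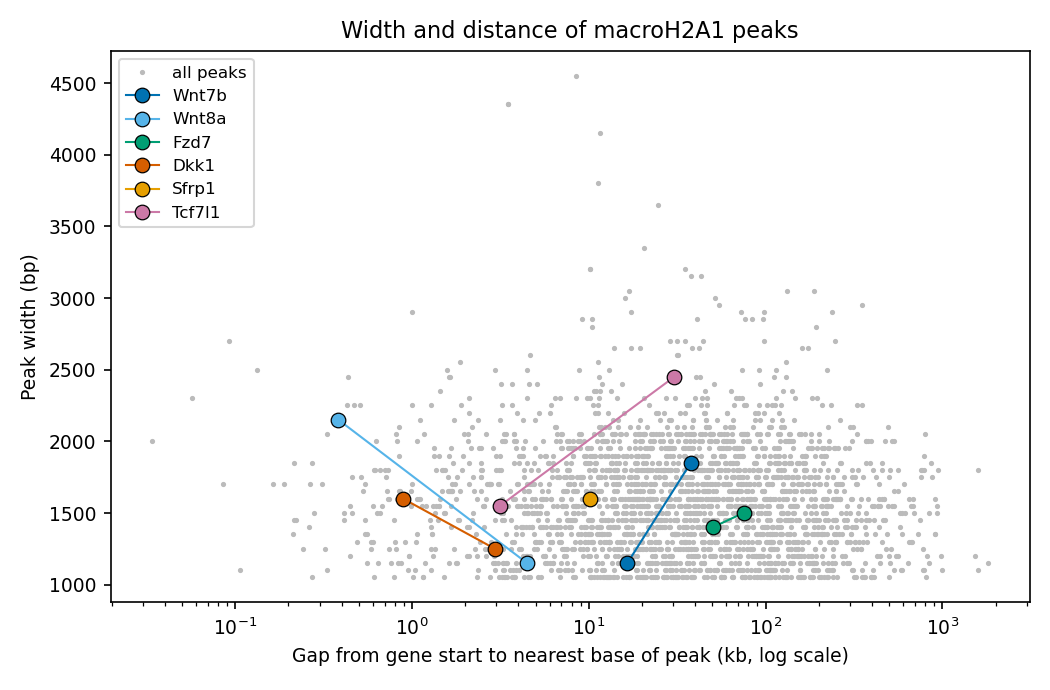
Width in bp (y axis) against the gap from the gene start in kb (x axis, log scale) for each peak, with the 11 member peaks in colour and a line joining peaks of the same gene; peaks that cover a gene start have a gap of 0 and are not drawn. Member widths run from 1151 bp at Wnt7b and Wnt8a to 2451 bp at Tcf7l1, and the lines of Wnt8a and Dkk1 slope down while those of Wnt7b, Fzd7 and Tcf7l1 slope up.

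Most of these genes had a pair of peaks. A second peak was present at 5 of the 6 genes, and at 14.2% of the genes with a symbol and a peak. The peaks of a pair were 0.449 kb apart at Dkk1, 4.85 kb at Wnt8a, 20.1 kb at Wnt7b, 23.4 kb at Fzd7 and 25.8 kb at Tcf7l1. All 5 spacings were below the median of 43.9 kb for the 153 other genes with 2 peaks (interquartile range 13.4 to 135 kb), of which 59 (38.6%) had peaks at most as far apart as those of Tcf7l1. At 4 of the 5 genes both midpoints were upstream of the start, against 31.4% of the other genes with 2 peaks. Counted by peak, 10 of the 11 had another peak within 30 kb, beside 14.8% of all peaks. Having a second peak and having one nearby are the same fact for these genes, so these counts are not separate observations.

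**Figure D3:**
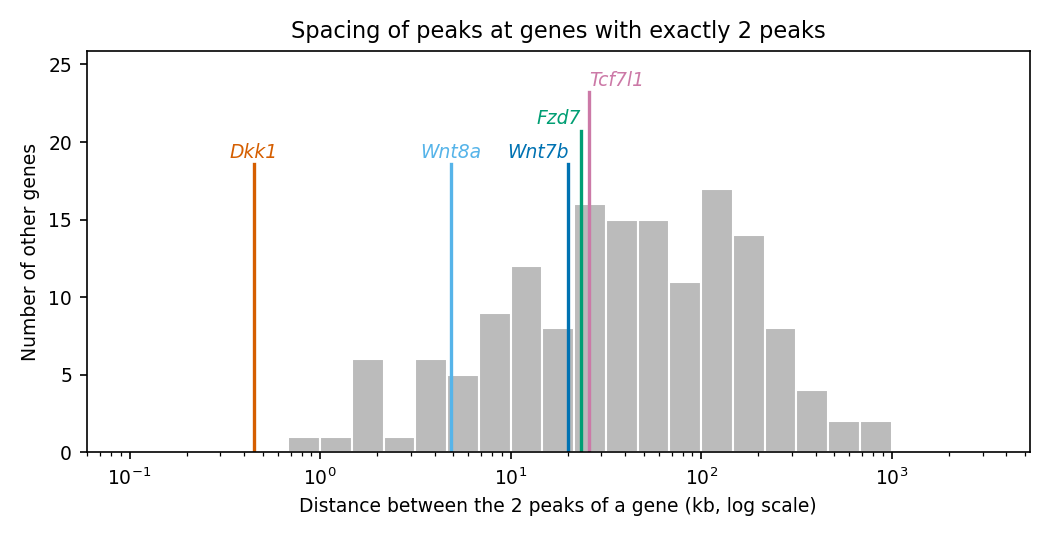
Distance in kb (x axis, log scale) between the peaks of each gene with exactly 2 peaks; grey bars count the 153 other genes and coloured lines mark the 5 members. Dkk1 is to the left of all bars, and Wnt7b, Fzd7 and Tcf7l1 lie between 20.1 and 25.8 kb.

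Within 200 kb of the 6 starts there were 15 peaks, the 11 of the members and 4 assigned to other genes. For Dkk1 the additional peaks lay 44.3 and 62.0 kb downstream (30578350 to 30579750, 1401 bp, and 30560700 to 30562000, 1301 bp). They were assigned to ENSMUSG00000058816, a gene without a symbol in the list. For Tcf7l1 they lay farther upstream, at 141 and 187 kb, on both sides of the start of Tmsb10, a thymosin gene (72879600 to 72881300, 1701 bp, and 72925950 to 72927300, 1351 bp). The entry for that gene lists several symbols beside Tmsb10, so its name is uncertain. The 187 kb peak was the farthest inside the window, and the nearest outside it was 232 kb from the Sfrp1 start and assigned to Zmat4.

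Dkk1 and Tcf7l1 therefore had 4 peaks each in the window, which 4.90% of the 1409 genes with a symbol and a peak reached. Wnt7b, Wnt8a and Fzd7 had 2 and Sfrp1 had 1. In all, 5 of the 6 genes had at least 2 peaks in the window, beside 38.0% of genes. These are the same 5 genes that had a pair of their own, so this count repeats that fact. Of the 12 protein-coding genes that flank the members in the RefSeq gene order, 11 had no peak assigned to them. The share with one (8.33%) was close to the 6.14% of all protein-coding genes. Those without an assigned peak included Ppara upstream of Wnt7b, Fam13b upstream of Wnt8a, Cdk15 upstream of Fzd7 and Prkg1 upstream of Dkk1. Zmat4, downstream of Sfrp1, had 2. Peaks that lie over these flanking genes but were assigned to others were not counted. Upstream of Dkk1, peaks at 429, 658 and 790 kb were assigned to Cstf2t, and their overlap with Prkg1 was not examined.

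A part of the rest of the pathway was described with a chosen list of 88 genes by role, the members included. The list is not complete: Dact1 and Prickle1, also linked to Wnt signalling, had peaks but are not in it. The counts below are of this list only. A peak was assigned to 13 of the 88 genes (14.8%), beside 6.14% of 21627 protein-coding genes. Genes that the peak list gives without a symbol could not be counted as having a peak, which lowers the background share by an unknown amount. The 6 members entered this list because they had peaks. Without them the count was 7 of 82 (8.54%), which is close to the background. With the members left out, peaks were at 0 of 17 ligand genes, 0 of 9 Frizzled receptors, 1 of 12 secreted inhibitors, 3 of 14 cytoplasmic and 3 of 12 nuclear components. No peak was assigned to any of the 5 co-receptors, among them Lrp5 and Lrp6, to the 7 R-spondins and their Lgr receptors, or to Porcn, Wls, Kremen1, Kremen2, Znrf3 and Rnf43. Among genes without a peak were also Ctnnb1, the β-catenin gene, Axin2, a feedback inhibitor and common target of the pathway, and the factors Lef1 and Tcf7.

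**Figure D4:**
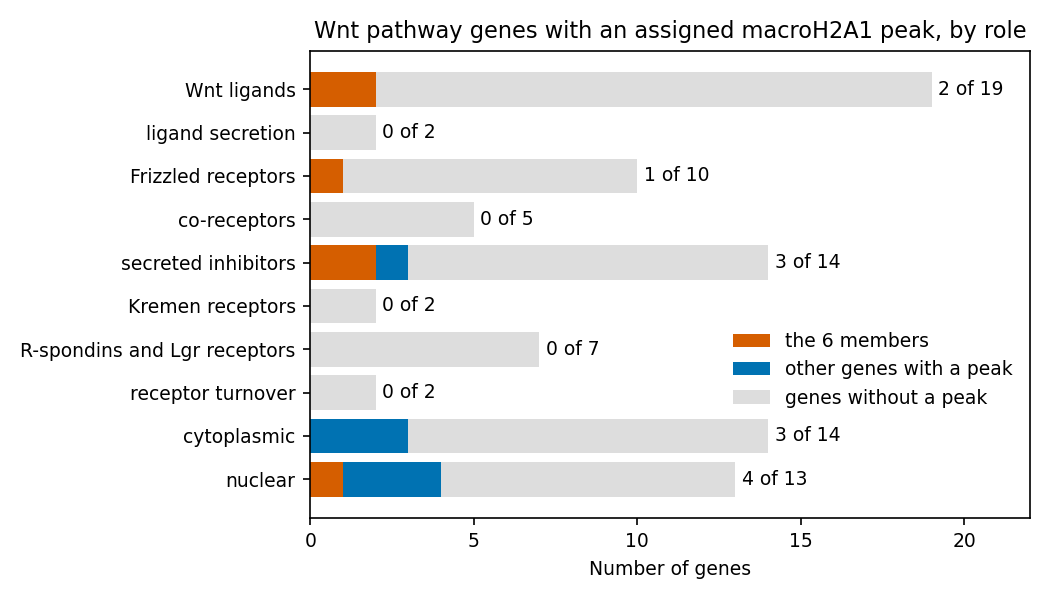
Number of genes of each role in the Wnt pathway list (x axis) with an assigned macroH2A1 peak, split into the 6 members (orange) and other genes (blue), and without one (grey); the labels count both. Outside the members, peaks are at 1 secreted inhibitor, 3 cytoplasmic and 3 nuclear components.

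The 7 other genes of the list with a peak were Apc, Btrc, Nkd1, Sfrp5, Tcf7l2, Tle3 and Tle4. Within 5 kb of a start, where 15.0% of all peaks and peaks of Wnt8a, Dkk1 and Tcf7l1 lay, there were none of their 9 peaks. Their median distance was 38.7 kb, the closest was 10.8 kb, and their median width was 1601 bp; 7 were upstream and 2 downstream. Apc, a scaffold of the complex that degrades β-catenin, had peaks 15.7 and 54.7 kb upstream, and Btrc, which targets β-catenin for degradation, at 21.3 and 38.7 kb upstream. Nkd1, which antagonises Dishevelled, had 1 peak 21.7 kb upstream. Apc and Wnt8a are on the same chromosome, with 222 kb between the end of Apc and the start of Wnt8a, and the Apc peaks lay 337 and 376 kb from the Wnt8a start, outside the window used here.

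Peaks at paralogues of the members, and at co-repressor genes of the pathway, are given beside those of the members. Tcf7l2 had 1 peak 83.7 kb upstream, where Tcf7l1 had one at 3.15 kb. Sfrp5 had the narrowest peak of the Wnt pathway list, 1051 bp, with 94.2% of all peaks wider. Many other peaks of the deposited list had this same width. The Sfrp5 peak lay 10.8 kb downstream of the gene's start and past the gene's end. That of Sfrp1 lay a similar distance upstream of its own gene. The co-repressor genes Tle4 and Tle3, whose proteins bind Tcf factors, had peaks 48.8 kb upstream (2051 bp) and 119 kb downstream (1601 bp).

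For each member the gene with the most similar peaks was sought, with the same number of peaks, the same sides and the smallest mean difference in log10 distance. For Wnt7b this was Prex1, among 51 genes of that kind, with peaks at 19.3 and 37.3 kb and a mean difference of 0.036. Fzd7 was nearest to Osbpl8, with peaks at 52.0 and 60.3 kb (difference 0.055), and Tcf7l1 to Zmat4, with peaks at 4.38 and 24.6 kb (0.12). Sfrp1 was matched almost exactly by Gcet2, among 672 genes with 1 upstream peak, at 10.1 kb. Wnt8a and Dkk1 had no close counterpart. Their best matches were 1700021P04Rik (1.03 and 8.42 kb, difference 0.34) and Mgst2 (1.11 and 24.7 kb, difference 0.51). In these data 0 of the 153 other genes with 2 peaks had both upstream and within 3 kb of the start, as Dkk1 did. On any side, 1 other gene had both within 3 kb. The limit lies just above the farther Dkk1 gap of 2.94 kb and the side is that of Dkk1, so these counts are only a description.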

How the data were processed

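The deposited table lists macroH2A1 peak regions with width (in bp), nearest gene and signed distance. Per the submitters' processing notes, Bowtie and the build NCBIM37 (mm9) were used for mapping. The name CCAT, a peak caller, stands in each peak name, and the columns follow ChIPpeakAnno, per the file headers. Its threshold and control are not stated in the labels or headers, and the peaks come from 1 library. The deposited distance runs to the peak's lower coordinate, so gaps to the nearest base were computed instead with Python 3.11.15, numpy 2.4.6 and pandas 2.3.3, and checked on simulated peaks. All peak edges lie on multiples of 50 bp. Of the peaks, 34.8% have a gene without a symbol.

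Symbols were matched by name or synonym, on the same chromosome, to RefSeq genes of GRCm38.p6, which gave names, gene order and promoter sequence only. Named were the 6 members, list genes with a peak, genes of peaks within 200 kb and the gene with the most similar peaks (50 bp added before log10). Dact1 and Prickle1 were named beside these, after the peaks were seen. Members and lists were chosen with earlier results of these data known. With 1 library no test was made. Alternatives were the wider peaks, other distances, windows and symbol rules.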

Additional observations from a re-analysis of the deposited data

How the results depend on the processing

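The median member distance was 10.1 kb to the nearest base, 10.9 kb to the midpoint, 11.7 kb as deposited and, over the wider peaks, those above the list's median width, 10.1 kb, and the median width was 1726 bp with the widest peak of each gene. Member peaks fell from 11 to 5 among the wider peaks, and to 5 when a peak had to overlap the gene or lie within 10 kb of its start, which left Wnt8a, Dkk1 and Tcf7l1. Peaks within the window numbered 15 at 200 kb, 13 at 100 kb, 23 at 500 kb and 6 among the wider peaks. Genes of the Wnt pathway list with a peak numbered 13, and 3, all members, within 5 kb (3.41%, against 1.14% of protein-coding genes). They numbered 10 within 50 kb (11.4% of the list, 4.33% of protein-coding genes), 10 among the wider peaks (11.4% and 3.22%), 13 with symbols on any chromosome and 11 with entries of 1 symbol, a setting chosen after seeing the data, which loses Apc and Nkd1. All these list counts include members, which entered the list because they had peaks, so the shares were raised in advance. Without members, 0 peaks of the list lay within 5 kb of a start, where 1.14% of protein-coding genes had one. In the main setting the share without members was close to the background. For the remaining settings it was not computed. The drops in this paragraph follow from the smaller sets counted. No paired analysis was possible because each antibody has 1 library. Depth is unknown, so it cannot be said which absent peaks were undetectable.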
